A study of Mus musculus with 35 samples.

Results

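The mouse genes described here are 5 ribosomal protein genes, Rpl3, Rpl10, Rpl22, Rpl39 and Rps27, each paired with a paralog, Rpl3l, Rpl10l, Rpl22l1, Rpl39l and Rps27l. The members were chosen by symbol and, where a gene is counted at a locus defined by Iso-seq, found through the identifier map that came with the counts. They are 10 of 55356 counted genes, and all 10 were among the 29911 genes that passed the filter on low counts. Rpl10l and Rpl39l had at most 11 and 14 counts in a library outside testis, so they passed that filter through testis.

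As background, a mouse ribosome usually takes each of its proteins from a sole functional gene that has many processed pseudogenes, and a few proteins can be replaced by the product of a paralog. Rpl3l is the form of Rpl3 known from heart and skeletal muscle, and Rpl10l and Rpl39l are known from male germ cells, where the X chromosome carrying Rpl10 and Rpl39 is silenced at meiosis. Rpl22l1 is the paralog of the RNA-binding large subunit protein Rpl22, and Rps27l, the paralog of the small subunit protein Rps27, is known as a target of p53.

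RNA was taken from brain, cerebellum, heart, colon and gonad (ovary or testis) of adult C57BL/6J mice of both sexes, in a study set up to find and measure pseudogene transcripts. After rRNA depletion, 29 stranded RNA-seq libraries were sequenced, 3 for each tissue and sex except male heart with 2, and a further 6 samples of full-length Iso-seq cDNA have no count column. Counted reads per library ran from 11742417 in colon to 36194255 in brain, with a median of 24403774. The labels do not say whether replicates are separate animals, so every p below measures the spread between libraries. The permutation tests of log2 ratios pool the libraries of all other tissues, so their spread includes differences between those tissues.

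The tissue labels were checked against defining marker genes, in FPKM, the count scaled by the length of the merged exons and by the counted reads of the library. All 6 heart muscle markers, all 5 colon epithelium markers, all 4 cerebellum markers and all 6 testis germ cell markers were higher in every library of their tissue than in every other library. The same held for 2 of 4 brain markers, 4 of 5 ovary markers and 3 of 4 markers of testis somatic cells. Female heart replicate 3 stood apart from the other hearts: its fat markers Adipoq, Plin1 and Cfd summed to 3099.9 FPKM, with all 3 of 3 present and Cfd the most abundant at 2313 FPKM, against 0.534 to 6.67 FPKM in the other hearts. Its heart muscle markers summed to 18098 FPKM against 36387 to 46344 FPKM in the other 4 hearts, with Myl2 the most abundant at 8547 FPKM. Its TMM scaling factor, edgeR's correction of the library total, was 1.12 against 0.604 to 0.71 in the other hearts. The main heart results are given with and without it. Hearts also differed from the other tissues in blood and mitochondrial reads. All 4 of 4 blood markers were at or above 1 FPKM in heart, with Hbb-bs the most abundant at 12113 FPKM, and they summed to 6666 to 23132 FPKM in a heart against at most 3404 FPKM in a library of another tissue. Mitochondrial genes took 7.41% to 13.6% of the counted reads in hearts and at most 6.26% elsewhere, and the part of these reads in the heart levels below was not tested.

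Rpl3l, the muscle form of the large subunit protein next to the peptidyl transferase centre, was a heart gene in these libraries. Its level was 258, 198 and 82.7 FPKM in the 3 female hearts and 213 and 230 FPKM in the 2 male hearts. The low value belongs to female heart replicate 3, and even that library was far above the 24 libraries of other tissues, where Rpl3l reached at most 0.650 FPKM. Its parent Rpl3 measured 143, 141 and 291 FPKM in the female hearts and 134 and 107 FPKM in the male hearts. The high value of Rpl3 comes from the same female library that was low in Rpl3l, and the part of its fat and muscle markers in these values was not tested. In 4 of 5 hearts Rpl3l exceeded Rpl3 per length among the counted, uniquely mapped reads. Of the transcript windows of 100 bases, 79.4% of those of Rpl3 and 0% of those of Rpl3l also occur in other genes. Reads dropped for this reason would lower Rpl3, and how many were dropped is not known. Skeletal muscle markers, checked because Rpl3l is also known from that muscle, summed to 1.0, 1.43 and 9.44 FPKM in the female and 3.55 and 1.2 FPKM in the male hearts, with 1 of 6 at or above 1 FPKM by mean (Actn3, 1.24 FPKM).

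By tissue mean, Rpl3l stood at 196 ± 67.4 FPKM in heart (SD, n = 5; 225 ± 25.6 FPKM without female replicate 3), then at 0.442 in ovary, 0.379 in cerebellum, 0.280 in testis, 0.276 in brain and 0.184 in colon. The step from heart to ovary separated the libraries completely, and each later neighbour overlapped the one before. The ratio of heart to the next tissue, ovary, was 445-fold, with a 95% counting interval of 329 to 612, and that to colon was 1065-fold (688 to 1569). Without female heart replicate 3 these ratios were 509 and 1219.5. Rpl3 itself ran from 1073 FPKM in ovary through brain (485), cerebellum (386), colon (369.8) and testis (176) to heart (163 ± 73.0, SD; 131 ± 16.8 without female replicate 3). Ovary was apart from brain, and colon from testis, while the other neighbours overlapped. The lowest means, of heart and testis, overlapped and changed places with TMM effective library sizes, at 209 FPKM in heart and 204 FPKM in testis. These are bulk tissues, so fewer cells of a type and less RNA per cell cannot be told apart.

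Set together, the pair summed to 359.6 ± 27.5 FPKM in heart (SD, n = 5) and to 356 ± 30.4 FPKM without female replicate 3, where colon had 369.9 FPKM and cerebellum 387 FPKM. The place of heart among the tissues depends on scaling: with TMM effective library sizes, a setting of the sums added after seeing the data, heart had 493.3 FPKM, brain 491 FPKM, cerebellum 354 FPKM and colon 335 FPKM. Rpl3l made up 64.4%, 58.4% and 22.1% of the pair in the female hearts and 61.4% and 68.3% in the male hearts. The 22.1% of female replicate 3 lies far below the others, and the heart mean was 54.9% ± 18.7 with it and 63.1% ± 4.22 without it (SD). In the other tissues Rpl3l held at most 0.233% of the pair in a library. The log2 ratio of Rpl3l to Rpl3 averaged 0.26 ± 1.18 (SD) in the 5 hearts and -10.58 ± 1.00 in the other 24 libraries. The difference of 10.84 had an exact two-sided permutation p of 8.42e-06, the smallest that 118755 labelings allow, and an adjusted p of 4.21e-05 over the 5 pairs, with all 5 of 5 hearts above each other library. Without female heart replicate 3 the difference was 11.36 and the exact permutation p 4.88e-05, again the smallest possible, with an adjusted p of 0.000244.

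**Figure D1:**
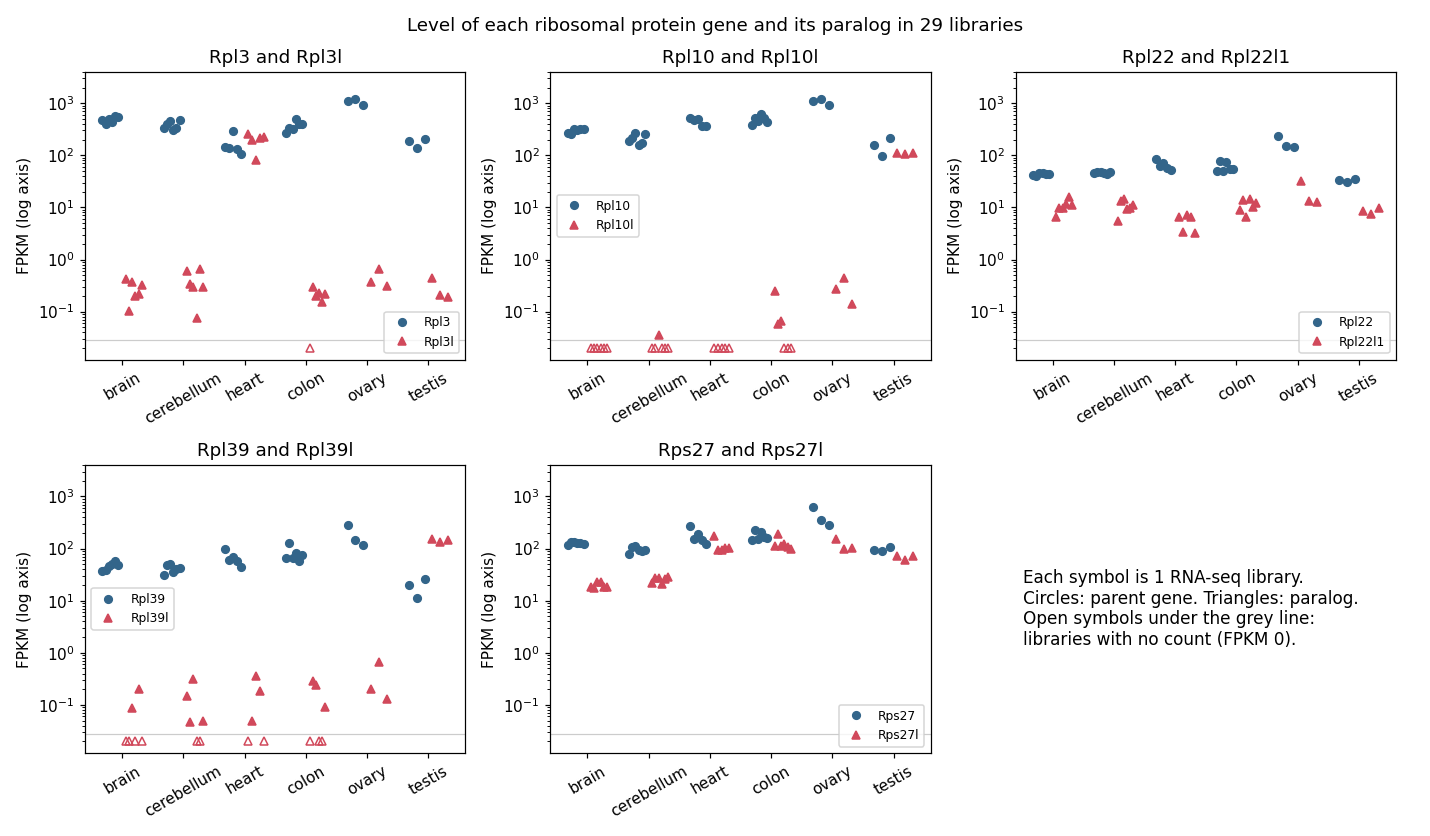
FPKM (log axis) of each parent gene (circles) and paralog (triangles) in 29 libraries grouped by tissue, with libraries at 0 drawn as open symbols under a grey line. Rpl3l reaches 82.7 to 258 FPKM in heart, Rpl10l 108 to 112 FPKM and Rpl39l 134 to 153 FPKM in testis, and none of them passes 0.677 FPKM in a library of another tissue.

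The coding sequences of Rpl3 and Rpl3l are 73.3% identical in alignment and share no run of 50 bases in their transcripts, so reads of this length or longer that match without error belong to 1 member of the pair. The stretch below, coding bases 856 to 975 of both, was picked because it holds the most differing bases, 42 of 120, and it shows how reads tell the genes apart. Capitals mark the bases that differ from the partner. The sequences are from the GENCODE M21 transcripts (GRCm38), whose coding parts span chr15:80077850-80083326 (minus strand) and chr17:24727884-24736056 (plus strand).
Rpl3: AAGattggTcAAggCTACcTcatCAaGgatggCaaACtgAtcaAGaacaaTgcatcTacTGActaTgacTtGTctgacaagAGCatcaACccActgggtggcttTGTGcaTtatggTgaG
Rpl3l: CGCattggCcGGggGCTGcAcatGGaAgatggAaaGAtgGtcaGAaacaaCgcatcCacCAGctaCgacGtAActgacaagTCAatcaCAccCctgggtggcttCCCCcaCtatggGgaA

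Rpl10l, an intronless copy of the large subunit protein gene Rpl10, was close to silent outside testis. The 3 testes gave 112, 108 and 112 FPKM, or 10161 counts in all. The 26 other libraries gave 26 counts together, of which 20 fell in the 3 ovaries (0.272, 0.433 and 0.140 FPKM), 5 in colon and 1 in cerebellum, with none in brain or heart. Testis was thus apart from ovary, and the ranges of the other neighbours overlapped. Against the floor of 3 counts over the group, testis was at least 6308-fold above brain and at least 4270-fold above heart. The ratio to cerebellum was 18327, with a 95% counting interval of 2917 to 641895 around its 1 count, and the ratio to ovary was 393 (259 to 655).

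The parent Rpl10, which lies on the X chromosome, was at 158, 98.6 and 211 FPKM in the 3 testes. All 3 were under the hearts (361 to 518 FPKM), the colons (384 to 617 FPKM) and the ovaries (1100.4, 1191 and 927 FPKM), while testis overlapped cerebellum at 157 to 266 FPKM. By mean, Rpl10 ran from ovary (1073 FPKM) through colon (489), heart (443), brain (297) and cerebellum (209) to testis (156 ± 56.2, SD, n = 3). Ovary was apart from colon and heart from brain, and the remaining neighbours overlapped. Rpl10l held 41.5%, 52.2% and 34.6% of the pair in the 3 testes, a mean of 42.8% ± 8.85 (SD), and at most 0.0652% elsewhere. The pair summed to 266 ± 58.4 FPKM in testis, with brain at 297 FPKM and cerebellum at 209 FPKM, and the libraries of testis overlapped both. With TMM effective library sizes, a setting of the sums added after seeing the data, testis had 309 FPKM, brain 300.3 FPKM and cerebellum 191 FPKM.

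Rpl39l showed the same tissue with a larger part of its pair. Its testis levels were 153, 134 and 147 FPKM, and no other library passed 0.677 FPKM. The parent Rpl39, a small protein of the exit tunnel of the large subunit and also X-linked, was at 19.6, 11.4 and 26.6 FPKM in the same 3 libraries. All 3 testes had more Rpl39l than Rpl39 and less Rpl39 than any other library, of which the lowest was a cerebellum at 31.1 FPKM. Rpl39 ran from ovary (182 FPKM) through colon (79.3), heart (66.2), brain (46.4) and cerebellum (41.8) to testis (19.2 ± 7.61, SD, n = 3), where the last step alone separated neighbours. The ratio of mean Rpl39l in testis to that in ovary was 431, with a 95% counting interval of 276 to 698, and to brain 3014 (1279 to 5837). Single libraries weigh on both ratios. Rpl39l ran from 0.129 to 0.677 FPKM in the ovaries and from 0 to 0.199 FPKM in the brains. The intervals cover counting error alone, and the ratios were not recomputed without a library.

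Rpl39l made up 88.7%, 92.1% and 84.7% of its pair in testis, a mean of 88.5% ± 3.74 (SD), where elsewhere it reached 0.599% at most. With the longest transcript in place of merged exons as gene length, the mean share was 77.4%. The pair summed to 164 ± 16.3 FPKM in testis, 183 FPKM in ovary and 41.9 to 79.4 FPKM in the other tissues. With the longest transcript, a setting of the sums added after seeing the data, testis had 194 FPKM, ovary 428 FPKM and colon 186 FPKM, and the libraries of testis and colon overlapped. With TMM effective library sizes, added likewise, the order of the highest turned, with testis at 189.7 FPKM and ovary at 133 FPKM, and their libraries overlapped. In log2 ratio to the parent, Rpl39l averaged 2.99 ± 0.54 (SD) in testis against -9.54 ± 1.38 in the other 26 libraries, and Rpl10l averaged -0.43 ± 0.52 against -13.35 ± 1.11. The differences of 12.53 and 12.92 each had an exact two-sided permutation p of 0.000274, the smallest that 3654 labelings allow, and an adjusted p of 0.000456 over the 5 pairs, with 3 of 3 testes above each other library. Both paralogs had few counts outside testis, so these p restate that rank and are not read as support. The sizes of both differences depend on the 0.5 added to each count. It sets the log2 ratio where a paralog had no count, as Rpl10l in all brains and hearts. Germ cell markers moved with both paralogs: all 6 were at or above 1 FPKM in testis, summed to 18569 FPKM with Prm2 the most abundant at 9646 FPKM, and reached at most 36.1 FPKM in a library of another tissue. The part of cell composition in these levels was not tested.

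**Figure D2:**
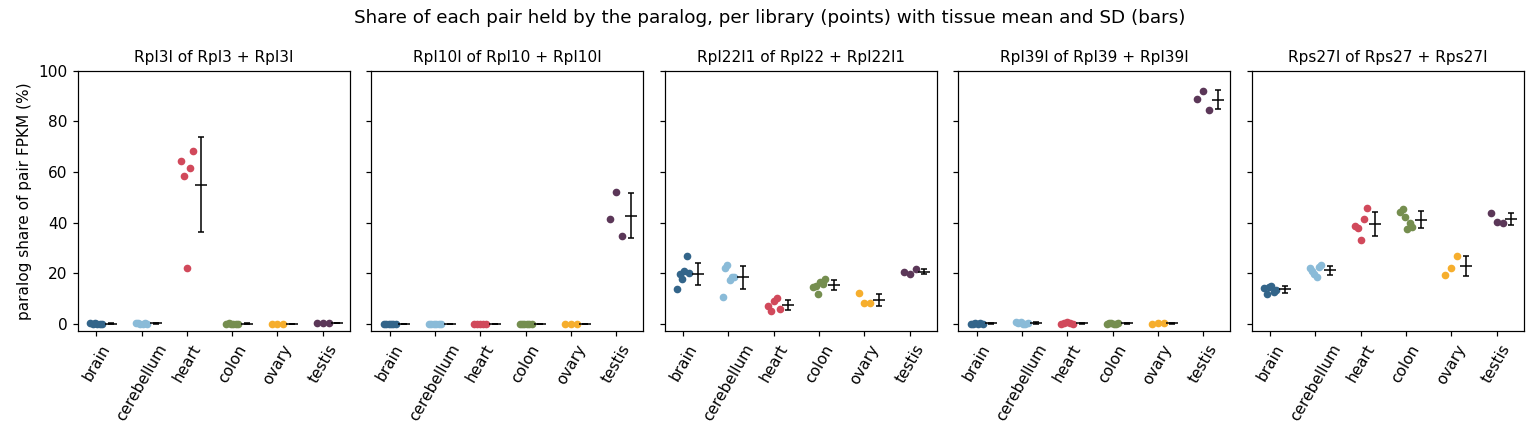
Share (%) of each pair's summed FPKM held by the paralog, with 1 point for each library and bars for the tissue mean and SD. Rpl3l holds 22.1% to 68.3% in heart, Rpl10l 34.6% to 52.2% and Rpl39l 84.7% to 92.1% in testis, while the shares of Rpl22l1 and Rps27l vary by degree among the 6 tissues.

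The coding sequences of Rpl10 and Rpl10l have the same length of 645 bases and differ at 98 of them, of which 89 are the last base of a codon. Those of Rpl39 and Rpl39l differ at 23 of 156 bases, 16 of them last bases of a codon. The lines below give coding bases 94 to 213 of the first pair, the stretch with the most differences. For the second pair the whole coding sequence is given. These differences tell parent and paralog apart, but not a parent from its pseudogenes. Of the transcript windows of 100 bases of Rpl10, 84.4% also occur in Rpl10-ps3. Capitals mark bases that differ from the partner. The coding parts span chrX:74271002-74273067 (plus strand, Rpl10), chr12:66283713-66284357 (minus strand, Rpl10l), chrX:37082701-37085127 (minus strand, Rpl39) and chr16:10174310-10174465 (plus strand, Rpl39l).
Rpl10: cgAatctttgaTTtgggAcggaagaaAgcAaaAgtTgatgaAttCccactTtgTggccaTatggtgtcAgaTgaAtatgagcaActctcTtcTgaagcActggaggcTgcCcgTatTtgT
Rpl10l: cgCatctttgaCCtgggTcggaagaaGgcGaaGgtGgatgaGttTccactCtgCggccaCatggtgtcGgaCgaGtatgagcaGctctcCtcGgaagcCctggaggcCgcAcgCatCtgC
Rpl39: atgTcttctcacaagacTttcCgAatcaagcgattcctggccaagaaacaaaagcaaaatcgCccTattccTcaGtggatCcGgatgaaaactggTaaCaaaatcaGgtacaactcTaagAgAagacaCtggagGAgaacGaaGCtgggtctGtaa
Rpl39l: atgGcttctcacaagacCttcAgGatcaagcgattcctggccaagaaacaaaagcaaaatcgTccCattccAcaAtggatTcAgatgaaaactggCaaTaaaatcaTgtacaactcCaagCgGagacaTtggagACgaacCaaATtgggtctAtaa

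Rps27l differed from the 3 paralogs above in that every library expressed it. Its level was 171, 92.5 and 92.7 FPKM in the female hearts and 105 and 101 FPKM in the male hearts, from 98.6 to 189 FPKM in the colons with a median of 112, and 153, 99.3 and 104 FPKM in the ovaries. The testes gave 73.4, 61.0 and 71.3 FPKM. Brain was lowest at 17.5 to 22.8 FPKM with a median of 18.7, next to cerebellum at 21.3 to 28.8 with a median of 26.6. Colon, ovary and heart overlapped one another, testis lay under all of them, and all 12 libraries of brain and cerebellum lay under testis.

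The parent Rps27 did not follow that order. It ran from 423 ± 186 FPKM in ovary (SD, n = 3) through colon (177), heart (176), brain (126) and testis (97.7) to cerebellum (95.9), with ovary apart from colon and brain from testis. Rps27l therefore held 41.2% ± 2.33 of the pair in testis, 41.1% ± 3.27 in colon and 39.3% ± 4.71 in heart (SD; 40.9% without female replicate 3), but 22.8% in ovary, 21.1% in cerebellum and 13.5% ± 1.23 in brain. With the longest protein-coding GENCODE transcript as gene length, a choice added after seeing the data, these shares became 30.4% in testis, 30.3% in colon, 28.8% in heart, 15.6% in ovary, 14.3% in cerebellum and 8.89% in brain, in the same order. Of the windows of 50 bases in the 345-base coding transcript of Rps27, 98.6% also occur in other genes, chiefly Rps27rt. Such reads were dropped in unknown number. The merged exons counted for Rps27 have 1043 bases, and the part of reads from outside that transcript was not tested. The log2 ratio of Rps27l to Rps27 in testis exceeded that of the other 26 libraries by 0.99, with an exact two-sided permutation p of 0.0753 (adjusted p 0.0941, 3 of 3 testes above the mean of the rest), so it did not pass. The SD of 0.90 among those 26 libraries includes differences between tissues, whose mean log2 ratios ran from -2.68 in brain to -0.52 in colon.

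Rpl22l1 had the narrowest range of tissue means among the 5 paralogs, from 19.5 FPKM in ovary to 5.33 FPKM in heart. Ovary gave 32.5, 13.5 and 12.5 FPKM and testis 8.62, 7.64 and 9.73 FPKM, while heart was lowest with 6.51, 3.41 and 7.04 FPKM in female and 6.54 and 3.17 FPKM in male libraries. Colon, brain and cerebellum had means of 11.0, 10.8 and 10.6 FPKM, and of all neighbours in the order the last, testis and heart, were apart. Its parent Rpl22 ran from ovary (177 FPKM) through heart (65.8), colon (60.7), cerebellum (46.7) and brain (43.4) to testis (33.3 ± 2.18, SD, n = 3), with breaks after ovary, colon and brain.

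Rpl22l1 held 20.6% ± 0.944 of its pair in testis (SD, n = 3), 19.8% in brain, 18.3% in cerebellum, 15.2% in colon, 9.44% in ovary and 7.42% ± 2.12 in heart (7.02% without female replicate 3). These shares depend on gene length: with the longest protein-coding GENCODE transcript, far shorter than the merged exons of the deposited annotation, they ran from 22.2% in heart to 48.3% in testis. The merged exons of Rpl22l1 form 1 block of 1989 bases, against 4 exons and 552 bases in that transcript. Its counts, levels and calls can thus include reads from the introns of that transcript, and their part was not tested. Its merged exons also share 159 bases, 7.99% of their length, with Gm33051 on the opposite strand, and the strand setting of the deposited counts is not stated. The log2 ratio to Rpl22 in testis exceeded that of the other libraries by 0.70 (exact two-sided permutation p 0.109, adjusted p 0.109, with 3 of 3 testes above the mean of the rest) and did not pass.

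In the tests across all genes, each tissue was set against the mean of the other 5 tissues with edgeR's quasi-likelihood test and Benjamini-Hochberg adjusted p over 29911 genes, called under 0.05. Members are counted without Rpl10l and Rpl39l, a choice added after seeing the data, because these passed the filter through testis and testis is a part of every such comparison. Rpl3l is counted, but outside heart it is set against a mean that includes heart, so its lower calls there are not given as tests. In heart 8 of 8 members were called, 6 higher and 2 lower, where 22.1% of all genes tested were higher and 29.6% lower (51.7% called). Rpl3l was higher by 9.98 ± 0.28 in log2 (SE, edgeR adjusted p 5.17e-20, 5 of 5 hearts) and by 10.20 without female heart replicate 3. Rpl3 was lower by a log2 difference of -0.97 ± 0.13 (edgeR adjusted p 2.96e-07, lower in 5 of 5), and of -1.01 without that library. Rps27l was higher by 1.6 ± 0.16 (edgeR adjusted p 1.8e-09, 5 of 5), and by 1.77 without that library.

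Parents other than Rpl3 went up in heart: Rpl10 by 0.85 ± 0.14, Rpl39 by 0.75 ± 0.20, Rps27 by 0.68 ± 0.16 and Rpl22 by 0.67 ± 0.13 in log2 (SE), each in 5 of 5 hearts with an edgeR adjusted p of 0.00219 or less. Without female heart replicate 3 they stood at 0.95, 0.88, 0.81 and 0.79 and kept their calls. Scaled by total count alone, none of the 4 was called, at 0.29, 0.17, 0.10 and 0.10, and the split of called members became 2 higher and 2 lower. That scaling moved the median of all genes in heart from -0.55 to -1.03. Relative to it, the median parent stood 1.23 above all genes with TMM and 1.13 above with total count. Rpl3, Rpl3l and Rps27l kept their calls with total count, at -1.46, 9.36 and 1.00. Rpl22l1 was lower by a log2 difference of -0.60 ± 0.23 (edgeR adjusted p 0.0344, 4 of 5 hearts). Its call was lost without ovary replicate 1 (edgeR adjusted p 0.0545), female heart replicate 2 (0.107) or 3 (0.0706), male heart replicate 2 (0.29) or testis replicate 2 (0.0854).

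In testis 6 of 8 members were called, 0 higher and 6 lower, where 40.4% of all genes tested were higher and 26.7% lower (67.1% called). Rpl39l and Rpl10l had to differ there, and their fits are not given as tests. All 5 parents were lower in 3 of 3 testes, Rpl39 by a log2 difference of -1.62 ± 0.29 (edgeR adjusted p 2.08e-05), Rpl10 by -1.19 ± 0.20 (8.2e-06), Rpl3 by -0.94 ± 0.15 (5.64e-06), Rpl22 by -0.76 ± 0.17 (0.000321) and Rps27 by -0.56 ± 0.21 (0.0228). The call of Rps27 was lost without testis replicate 1 (edgeR adjusted p 0.0897) or 2 (0.135), and with DESeq2's size factors, where its log2 difference was -0.43 (0.0724), and by DESeq2 (0.0549). Rps27l stood at 0.43 ± 0.20 (edgeR adjusted p 0.0663, 3 of 3) and passed by DESeq2 (0.0136) and with those size factors (0.56, 0.0141), which turned the split into 1 higher and 5 lower. It also passed without female heart replicate 1 (0.00434) or 3 (0.0351) or female colon replicate 2 (0.0329). Rpl22l1 was at -0.01 ± 0.27 and not called. The remaining lower call was Rpl3l, against a mean that includes heart.

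The ovary had the highest mean of all 5 parents. Of the 8 members 7 were called there, 6 higher and 1 lower, where 22.4% of all genes tested were higher and 19.8% lower (42.2% called). Rpl39 was higher by 1.48 ± 0.22, Rpl3 by 1.42 ± 0.13, Rpl10 by 1.38 ± 0.16, Rpl22 by 1.34 ± 0.14 and Rps27 by 1.18 ± 0.18 in log2 (SE), each with an edgeR adjusted p of 7.1e-06 or less in 3 of 3 ovaries. Rps27l was higher by 0.59 ± 0.20 (edgeR adjusted p 0.0175, 3 of 3), and without ovary replicate 1 it stood at 0.44 and was not called (0.169). The fit of Rpl10l, on 20 counts in ovary and none in brain or heart, is not given as a test. The 1 lower was Rpl3l, against a mean that includes heart, and by FPKM ovary had its highest mean after heart. That lower call was lost without ovary replicate 3 (edgeR adjusted p 0.0519). Rpl22l1 missed the threshold at 0.59 (0.065) and passed with total count scaling at 1.13 (0.000463) and without the filter at 0.66 (0.0307). It also passed without ovary replicate 2 (0.0424) or 3 (0.0317), female heart replicate 1 (0.0368), female colon replicate 2 (0.0389) or male heart replicate 1 (0.0404).

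Brain and cerebellum were the tissues of low Rps27l, which was lower by -1.97 ± 0.18 in brain (SE, edgeR adjusted p 5.19e-10, 6 of 6 libraries) and by -1.69 ± 0.18 in cerebellum (7.97e-09, 6 of 6). In cerebellum 6 of 8 members were called, all lower, where 30.8% of all genes tested were higher and 22% lower (52.8% called). They included Rpl10 at -1.10 ± 0.15 (edgeR adjusted p 4.07e-07), Rps27 at -1.0 ± 0.16 (8.93e-06), Rpl39 at -0.68 ± 0.20 (0.00502) and Rpl22 at -0.58 ± 0.13 (0.000296), each in 6 of 6 libraries, while Rpl3 stood at 0.01 ± 0.11 and was not called. In brain 4 of 8 members were called, 1 higher and 3 lower, where 33% of all genes tested were higher and 23.1% lower (56% called). Rpl3 was the higher one, by 0.57 ± 0.10 (edgeR adjusted p 3.28e-05, 6 of 6), and Rpl22 was lower by -0.55 ± 0.13 (0.000526, 6 of 6).

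In brain Rpl10 (-0.31, edgeR adjusted p 0.0571, 6 of 6), Rps27 (-0.36, 0.0552, 6 of 6) and Rpl39 (-0.35, 0.143, 5 of 6) missed the threshold, and their calls depend on settings. All 3 passed as lower with DESeq2's size factors (0.00447, 0.00832 and 0.0356) and by DESeq2 (0.00105, 0.00277 and 0.0195). Rpl10 and Rps27 also passed with total count scaling (0.0266 and 0.0251) and without the filter (0.0264 and 0.0276). With 1 library left out, Rpl10 passed in 4 cases (0.000855 to 0.0473), Rps27 in 8 (0.00904 to 0.0497) and Rpl39 without testis replicate 2 (0.0152).

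In colon, whose libraries overlapped ovary and heart in Rps27l, that gene was higher by 1.04 ± 0.15 in log2 (SE, edgeR adjusted p 1.16e-06, 6 of 6 libraries). Its mean of 124 FPKM in colon was 111 FPKM without female replicate 2, a choice added after seeing the data, under ovary (119) and heart (112). Heart and ovary had a high library too, at 171 FPKM and 153 FPKM, and were not recomputed without it. No order of these means is read from this. In all 3 of 8 members were called in colon, 2 higher and 1 lower, where 28.2% of all genes tested were higher and 31.1% lower (59.3% called). The other higher member was Rpl10 at 0.37 ± 0.13 (edgeR adjusted p 0.0179, 6 of 6), a call lost without female colon replicate 2 (0.0797) or male colon replicate 1 (0.0544). Rpl39 was at 0.42 ± 0.19 (edgeR adjusted p 0.0539, 6 of 6). It passed without ovary replicate 1 (0.0173), female heart replicate 1 (0.0166), female colon replicate 1 (0.0242) or 3 (0.0312), or testis replicate 2 (0.0328) or 3 (0.025), and with total count scaling at 0.57 (0.00587). It also passed with DESeq2's size factors (0.00761), without the filter (0.00992), with the library code block (0.0261) and by DESeq2 (0.00451).

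Rpl3l was also among the lower calls in brain, cerebellum and colon, where heart belongs to the tissues compared with. A fit without heart was not made, so what it adds to these calls was not tested. Rpl39l had 8, 12 and 8 counts over the 6 libraries of brain, cerebellum and colon, and its fits there, against a mean that includes testis, are not given as tests.

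The parents were compared with the 79 standard ribosomal protein genes, a list of the cytosolic ribosomal proteins without paralogs. In heart, where 22.1% of all genes tested were higher and 29.6% lower, 65 of these were higher and 1 lower. The 1 lower was Rpl3. The median log2 difference of the list in heart was 0.56, which is 1.11 above the median of all genes. With total count scaling the split was 13 higher and 8 lower and the median -0.01, which is 1.02 above that of all genes. Rpl3 ranked lowest of the 79, while Rpl22, Rps27, Rpl39 and Rpl10 ranked 49, 51, 60 and 67 from the lowest. Without female heart replicate 3 there were 72 higher and 1 lower. Those with a large positive difference included Rps2 (1.76 ± 0.14) and Rplp0 of the stalk (1.33 ± 0.12), in log2 with SE, an edgeR adjusted p of 3.52e-10 or less and 5 of 5 hearts higher.

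In testis, where 26.7% of all genes tested were lower and 40.4% higher, 47 of the 79 standard genes were lower and 2 higher. The median of these 79 was -0.56, or -0.66 relative to all genes, and with total count scaling 65 were lower and 1 higher. Among them Rpl39 ranked 4 from the lowest, Rpl10 7, Rpl3 19, Rpl22 29 and Rps27 42 of 79. The 3 called genes with the largest drop were X-linked: Rpl36a (-1.78 ± 0.26), Rps4x (-1.64 ± 0.20) and Rpl39 (-1.62 ± 0.29). The 2 higher ones were Rps20 (0.66 ± 0.21, edgeR adjusted p 0.00768) and Rplp0 (0.52 ± 0.15, 0.00343). Of all genes tested, 22.4% were higher and 19.8% lower in ovary, 30.8% and 22% in cerebellum, and 33% and 23.1% in brain. In these tissues the standard genes were 77 higher and 0 lower in ovary, 0 higher and 74 lower in cerebellum, and 2 higher and 37 lower in brain, by edgeR. In ovary 77 and in cerebellum 74 had an unadjusted p under 0.05, and DESeq2 gave 77 higher with 0 lower and 75 lower with 0 higher. In colon the direction of the list turned with the scaling, from 12 higher and 13 lower with TMM to 25 higher and 3 lower with total count. Of all genes tested there, 28.2% were higher and 31.1% lower with TMM. The shares of all genes beside these lists, here and below, belong to the TMM fit of all libraries. Those of the other settings are not given, so counts under other settings have no such share beside them.

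**Figure D3:**
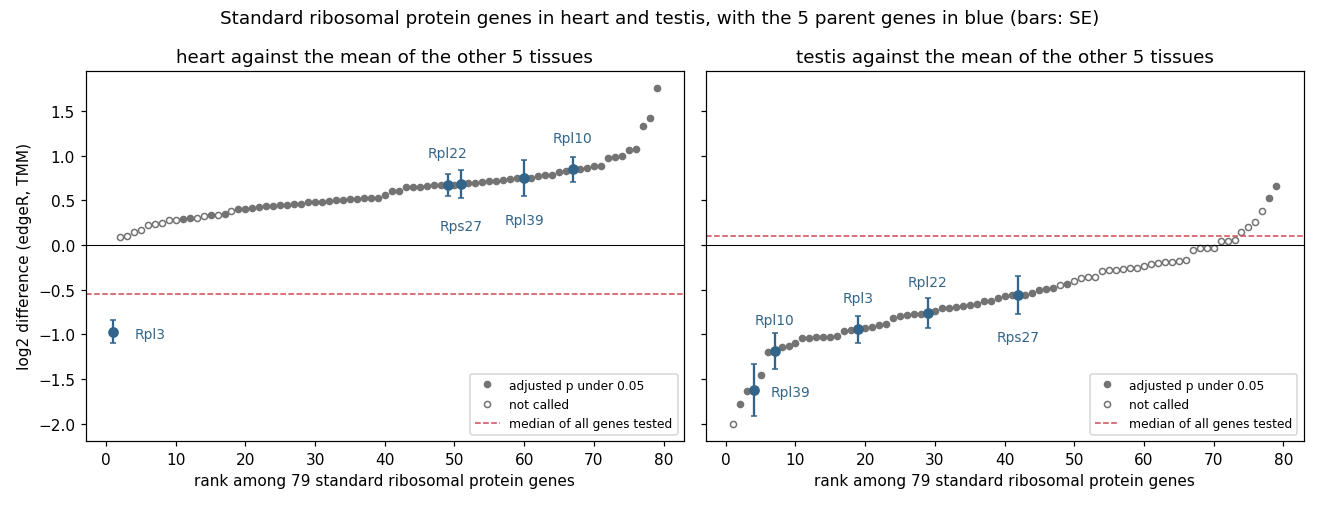
Log2 differences (edgeR, TMM) of 79 standard ribosomal protein genes in heart and in testis, ranked, with filled symbols for adjusted p under 0.05, the 5 parents in blue with SE bars and the median of all genes as a dashed line. Rpl3 is lowest in heart at -0.97 where 65 are higher, a split that became 13 higher and 8 lower with total count scaling, and Rpl39 at -1.62 and Rpl10 at -1.19 are among the lowest in testis. Of all genes tested in heart, 22.1% were higher and 29.6% lower with TMM.

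Rpl10 and Rpl39 share the X chromosome with the standard genes Rps4x and Rpl36a. All 4 were lower in testis, with a median of -1.63, and all 4 were higher in ovary, with a median of 1.55. Of all genes tested, by edgeR, 26.7% were lower in testis, 22.4% higher in ovary, 22.1% higher in heart, 22% lower in cerebellum, 23.1% lower in brain and 28.2% higher in colon. The counts of all 4 in testis and in ovary held with total count scaling. In heart 3 of the 4 were higher (1 with total count scaling), and Rpl36a, at 0.38 (edgeR adjusted p 0.0795, 4 of 5), passed without ovary replicate 1 (0.0252), female heart replicate 2 (0.0279) or 3 (0.0245), female colon replicate 2 (0.0318) or testis replicate 2 (0.0378), and with the library code block (0.0141). In cerebellum all 4 were lower (3 with total count scaling), and the call of Rpl36a at -0.46 (edgeR adjusted p 0.028, 5 of 6) was lost without female cerebellum replicate 1 (0.088) or 2 (0.0624) or male cerebellum replicate 2 (0.0899). In brain Rps4x was called, at -0.33 (edgeR adjusted p 0.033, lower in 6 of 6), a call lost without female brain replicate 1 (0.0756) or 2 (0.0734), male brain replicate 1 (0.0976) or 3 (0.0598), testis replicate 3 (0.055) or male heart replicate 1 (0.0557). In colon Rpl10 was called, and Rps4x, at 0.27 (edgeR adjusted p 0.0746, 5 of 6), passed without female heart replicate 1 (0.0243), female colon replicate 1 (0.0253) or testis replicate 2 (0.0256) or 3 (0.032). It also passed with total count scaling (0.42, edgeR adjusted p 0.0022), with DESeq2's size factors (0.00318), without the filter (0.00899) and by DESeq2 (0.0012), and with total count scaling 3 of the 4 were higher.

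Other copies of ribosomal protein genes were read beside the pairs. Rps4l, an autosomal copy of Rps4x, followed the pattern of Rpl10l and Rpl39l in a weaker form: it was at 73.7 to 75.5 FPKM in testis and at most 25.3 FPKM in another library, a log2 difference of 2.84 ± 0.17 (SE, edgeR adjusted p 3.14e-14, 3 of 3). Rpl36al, the autosomal copy of Rpl36a, was higher in testis by 0.53 ± 0.19 (edgeR adjusted p 0.0173, 3 of 3), a call lost without testis replicate 3 (0.0985), with total count scaling (0.181) and without the filter (0.0971). Rpl7l1 was lower in testis at -0.42 ± 0.13 (edgeR adjusted p 0.00516, 3 of 3), lost without testis replicate 2 (0.0654), and Rps27rt at -0.48 was not called. In heart Rpl7l1 was called at 0.41 ± 0.10 (edgeR adjusted p 0.00101, 4 of 5), and with total count scaling its sign turned to -0.15 without a call. By tissue mean Rpl36al ran from 67.6 FPKM in ovary to 27.8 FPKM in cerebellum, Rpl7l1 from 40.5 FPKM in ovary to 13.9 FPKM in testis, and Rps27rt from 3.76 FPKM in ovary to 0.953 FPKM in testis.

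Rps27l was set beside 12 other p53 target genes, in fits where the percent of all genes called was 51.7% in heart, 59.3% in colon, 56% in brain, 52.8% in cerebellum, 42.2% in ovary and 67.1% in testis by edgeR. Of all genes, 22.1% were higher and 29.6% lower in heart, 28.2% and 31.1% in colon, and 33% and 23.1% in brain. The shares higher and lower were 30.8% and 22% in cerebellum, 22.4% and 19.8% in ovary, and 40.4% and 26.7% in testis. In heart 5 of the 12 were higher (Ccng1, Eda2r, Aen, Plk2, Mdm2) and 4 lower (Sesn2, Zmat3, Trp53inp1, Cdkn1a), and with total count scaling 3 were higher and 5 lower. In colon, where Rps27l was also higher, 3 were higher (Cdkn1a, Trp53inp1, Sesn2) and 3 lower (Plk2, Aen, Zmat3), which became 5 and 3 with DESeq2's size factors. In brain, where Rps27l was lower, 3 were higher (Plk2, Zmat3, Bax) and 6 lower (Eda2r, Trp53inp1, Cdkn1a, Sesn2, Ccng1, Mdm2). Cerebellum had 4 higher (Zmat3, Sesn2, Plk2, Bax) and 4 lower (Eda2r, Trp53inp1, Ccng1, Mdm2), and with DESeq2's size factors 2 higher and 4 lower. In ovary 3 were higher (Eda2r, Trp53inp1, Bax) and 6 lower (Ccng1, Mdm2, Sesn2, Plk2, Cdkn1a, Zmat3), which turned to 6 higher and 2 lower with total count. In testis 2 were higher (Mdm2, Sesn2) and 8 lower (Phlda3, Cdkn1a, Ccng1, Plk2, Bbc3, Bax, Zmat3, Aen).

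Male and female libraries were compared over the 4 tissues sampled in both sexes. By edgeR 0 of the 8 members other than Rpl10l and Rpl39l were called, where 0.0301% of all genes tested were higher in male and 0.0736% lower (0.104% called), with 0 members at an unadjusted p under 0.05 and 0 called by DESeq2. The log2 differences of male minus female lay between -0.17 (Rps27) and 0.16 (Rpl22l1) among these 8. Whether the sex difference varied among those 4 tissues was tested with the interaction term, where 0.0167% of all genes tested and 0 of 8 members were called by edgeR, 0 at an unadjusted p under 0.05. DESeq2 called 0 members for it, with 1 at an unadjusted p under 0.05. Of all genes, DESeq2 called 310 between the sexes and 236 for the interaction. The smallest edgeR p among the 8 was 0.0615, for Rpl3, which was at 120 ± 19.3 FPKM in male and 192 ± 86.0 FPKM in female heart (SD, n = 2 and 3), the latter including female replicate 3.

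The genes with a pattern most like each paralog over the 29 libraries were taken as the 3 highest Pearson correlations in log2 CPM (counts scaled by library size), as a description over libraries that share tissues. For Rpl3l they were the joined locus of Ankrd23, Ankrd39 and Gm42417 (r = 0.98, n = 29), the cardiac transcription factor gene Nkx2-5 (r = 0.98) and Gm11756 (r = 0.98). For Rpl10l they were Pxt1, Dpep3 and the testis bromodomain gene Brdt (r = 0.99 each), and for Rpl39l Pom121l2 (r = 0.98), Slc25a54 (r = 0.98) and Krt88 (r = 0.97). Rps27l was most like Snap23 (r = 0.97), Hbp1 (r = 0.97) and Ifi205 (r = 0.96). Rpl22l1 had weaker partners in Med6 (r = 0.76), Selenof (r = 0.73) and the splicing factor gene Srsf7 (r = 0.72).

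How surely reads belong to a member differs between parents and paralogs, because the authors kept uniquely mapped reads alone. Of the windows of 100 bases in the transcripts, 79.4% of those of Rpl3, 84.4% of Rpl10 and 98.4% of Rps27 also occur in other annotated genes, in Rpl3 in 7 pseudogenes and in Rps27 chiefly in Rps27rt. For Rpl3l, Rpl10l, Rpl39l, Rps27l and Rpl22 that share was 0%, for Rpl39 1.75% and for Rpl22l1 50.8%. With windows of 50 bases it was 22.4% for Rps27l, 16.5% for Rpl39, 7.6% for Rpl10l, 5.19% for Rpl22, 65.6% for Rpl22l1, 85.6% for Rpl3, 85.4% for Rpl10 and 98.6% for Rps27, and 0% for Rpl3l and Rpl39l. How many reads were dropped for this reason is not known from the files, so the shares of all 5 paralogs are those among counted reads. Reads dropped from Rpl3, Rpl10 or Rps27 would raise the share of the paralog, and reads dropped from Rpl22l1 would lower its own.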

How the data were processed

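Gene counts as deposited were used without change: the authors mapped the reads, kept unique alignments and counted them per gene on Iso-seq models joined with ENSEMBL, and the submitters' processing notes list HISAT2 2.0.5, featureCounts 1.6.3, FastQC 0.11.8 and MultiQC 0.9. Whether counting used the strand is not given. The members and gene lists (79 standard ribosomal protein genes, 4 X-linked ones, 4 other copies, 12 p53 targets, markers of tissues and blood) were chosen with earlier results of these data known. Members, X-linked genes and other copies are named whatever their values. Of the standard genes, those named come from the 3 called genes with the largest log2 difference in each direction in heart and in testis, and of the p53 targets the called ones are named. Rpl24, Rps3 and Rps21 are named besides for their place among the lowest in testis, a choice added after seeing the data. For each paralog the 3 protein-coding genes with the highest correlation are named.

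All 29 libraries entered 1 edgeR 4.0.16 fit (R 4.3.3; TMM, filterByExpr, quasi-likelihood, 10 groups of tissue and sex). Calls were made at a Benjamini-Hochberg adjusted p under 0.05 in 8 comparisons. FPKM used the counted total and merged exons. Log2 ratios, with 0.5 added to each count, were tested by exact permutation over libraries and adjusted over 5 pairs. Counting intervals are exact Poisson intervals at 95%, and like the floor of 3 counts they cover counting error alone. Alternatives were DESeq2 1.42.0 and its size factors, total count scaling, FPKM on TMM effective library sizes, no filter, blocks for replicate number and library code, other gene lengths, other pseudocounts (0.1 and 1), same-sex libraries and leaving out each library. Python 3.11.15, numpy 2.4.6, pandas 2.3.3, scipy 1.17.1, Biopython 1.88 and matplotlib 3.10.9 were used for the rest. The tests were also run on simulated counts, and the outcome is not given here.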

Additional observations from a re-analysis of the deposited data

Results flagged for a closer look

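In groups of 4 to 10 libraries, 9 of 56 sets of values had a highest or lowest library far from the rest by Dixon's criterion, and chance gives about 1 in 20 such groups. In heart, female replicate 3 had 291 FPKM of Rpl3 where the other hearts had 107 to 143 FPKM, and its share of Rpl3l was 22.1% against 58.4% to 68.3%. The fat and heart muscle markers of this library also stood apart from the other hearts, and their part in these values was not tested. Rps27l was at 171 FPKM in female heart replicate 1 against 92.5 to 105 FPKM in the other hearts.

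In colon, female replicate 2 had 131 FPKM of Rpl39 against 58.8 to 81.4 FPKM in the others, and 189 FPKM of Rps27l against 98.6 to 124 FPKM. Female colon replicate 1 had 0.250 FPKM of Rpl10l against 0 to 0.0665 FPKM, a share of 0.0652%, from 3 counts. Female cerebellum replicate 3 had 0.0362 FPKM of Rpl10l, a share of 0.0136%, from 1 count, and the other cerebella had none.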

How the results depend on the processing

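Of the log2 differences of members and other named copies under alternatives, 3521 kept their side of the threshold, 69 newly passed it, 73 no longer passed it and 1 called value turned: Rpl7l1 in heart, at -0.15 with total count scaling. Of the 3521, 99 changed sign, all without a call in either setting. The 169 ratio results under alternatives kept direction and side, with leave-one-out differences of 10.63 to 11.36 for Rpl3l, 12.64 to 13.16 for Rpl10l, 12.25 to 12.79 for Rpl39l, 0.64 to 0.75 for Rpl22l1 and 0.91 to 1.04 for Rps27l. The p of Rpl3l, Rpl10l and Rpl39l was already the smallest possible in the main tests. No stability is read from their side of the threshold. The share of Rpl39l in testis, 88.5%, became 77.4% with the longest transcript of either annotation as length, of which the GENCODE choice was added after seeing the data. With TMM effective library sizes 16 tissue means of members moved by more than 1 SD and 44 did not, with the longest transcript 18 moved and with the GENCODE one 24 (Rpl39 is 1434 bases in merged exons and 612 in either, Rps27 1043, 672 and 458). Of the pair sums, recomputed in settings added after seeing the data, 11 moved as far with those sizes, 12 with the longest transcript and 17 with the GENCODE one. Members called in brain, with Rpl10l and Rpl39l counted, 5 with TMM, were 8 with DESeq2 size factors, 9 with DESeq2 and 4 to 8 with 1 library left out. These tallies include members whose fits are not given as tests, so nothing is read from them. Without Rpl10l and Rpl39l, as counted in the report, 4 of 8 with TMM became 7 with DESeq2 or with its size factors. With 1 library left out the count was 4 to 7. In heart 8 became 4 with total count scaling. With TMM, edgeR called 56% of all genes in brain and 51.7% in heart. These shares belong to the TMM counts alone, and those of the other settings are not given here. The cause was not tested.

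Genes called between the sexes, 31 by edgeR, were 310 by DESeq2 and 18 to 52 with 1 library left out. Genes called for the interaction, 5 by edgeR, were 3 with DESeq2 size factors, 1 with total count, 12 without the filter, 1 with the replicate block, 2 with the library code block, 236 by DESeq2 and 0 to 14 with 1 library left out. With the replicate block as pairing, all 106 log2 differences of members and copies kept their side, and 2 without a call changed sign. Libraries of the same replicate number had no common pattern (median r -0.00197 over 126 pairs), so the block was not used in the report. Libraries of the same library code block had a median r of 0.0141 over 53 pairs, of which 4 passed 0.1. With that block 57 log2 differences kept their side and 3 newly passed. Where male heart is left with 1 library, its spread is taken from the other groups.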
